A study of Mus musculus with 360 samples.

Results

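The voltage-gated calcium and sodium channel genes were taken as all rows of the exon count matrix whose symbol begins with Cacna1, Cacna2d, Cacnb or Cacng, or with Scn, a number and the letter a or b, except 1 alpha1 gene that the selection rule leaves out. These are 39 of the 48440 gene rows. They comprise 9 pore-forming calcium channel (Cav) alpha1 genes, 4 alpha2delta, 4 beta and 8 gamma genes, and 10 pore-forming sodium channel (Nav) alpha and 4 Nav beta genes. A unique molecular identifier (UMI), which marks 1 captured transcript fragment, was counted for 26 of the 39. The other 13 (Cacna1f, Cacna1i, Cacna1s, Cacng1, Cacng3, Cacng5, Cacng6, Cacng8, Scn1a, Scn2b, Scn3a, Scn9a and Scn10a) are listed at 0 in all cells, as are 6 of 78 rows of ribosomal protein genes.

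The study profiled 360 single mouse cochlear cells, 180 per genotype, and asked whether non-sensory cells of the mature cochlea turn into hair cells when Gfi1, Atoh1 and Pou4f3 are expressed. Control mice carried Fbxo2CreERT2, a Cre that tamoxifen activates and that follows Fbxo2 expression, together with Rosa26-tdTomato as a reporter. The GAP mice had the Rosa26-GAP allele in addition, which encodes Gfi1, Atoh1 and Pou4f3. All mice received tamoxifen at 3 weeks of age, and at 5 weeks their cells were dissociated with papain and sorted on tdTomato and EpCAM. No animals are named in the labels. Each genotype is therefore 1 sample, no difference was tested and every interval below is a 95% interval for counting error only. The sample titles carry 4 letters, of which A and B hold only control cells while C and D hold only GAP cells, so that letter and genotype cannot be told apart.

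A voltage-gated calcium channel has a pore-forming alpha1 subunit, which sets the current type. Outside the T-type, this pore is joined by an intracellular beta subunit and an extracellular alpha2delta subunit. These bring the pore to the surface and tune its gating. Sodium channels have a pore-forming alpha subunit and small beta subunits that modulate gating and cell adhesion. Mature hair cells release transmitter at ribbon synapses through calcium channels, and immature hair cells also carry sodium currents and fire action potentials. Supporting cells, the non-sensory neighbours of hair cells, do not have such synapses.

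A level is the sum of a gene's UMIs in a set of cells, given in CPM, the usual scaling by the set's total UMIs. Control cells held 4001274 UMIs and GAP cells 5366362, with medians of 21280 and 28963 per cell. Shares of cells with a UMI are therefore given after each cell was thinned to 8000 UMIs, a depth that 3 control cells and 0 GAP cells did not reach. A gene is called at least 2-fold higher or lower when the log2 ratio of levels, each with 1 CPM added, reached 1 in size and both GAP letters lay beyond both control letters. The list of 10 hair cell markers summed to 1123 CPM in GAP cells against 39.2 CPM in controls, and 10 supporting cell markers to 3872 and 7517 CPM.

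Of the better counted genes, 5 were higher in GAP cells. They include the calcium channel genes Cacna1b, Cacna2d1, Cacna2d2 and Cacnb3, with folds from 2.05 for Cacna2d1 to at least 22.4 for Cacna1b. The T-type calcium channel gene Cacna1g was lower. Of the 39 genes, 10 had a mean of the genotype levels of at least 5 CPM; 5 of these were called higher and 1 lower, where 12.1% of the 11050 genes past the same filter were called higher and 6.09% lower. Their median log2 ratio was 0.999, against 0.096 for all genes past the filter. With no filter, 13 of the 26 genes with a UMI were called higher (12.1% of 19416 genes) and 4 lower (5.05%). These counts are a description, since a gene seen in 1 genotype only can pass through the genotype where it is high.

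**Figure D1:**
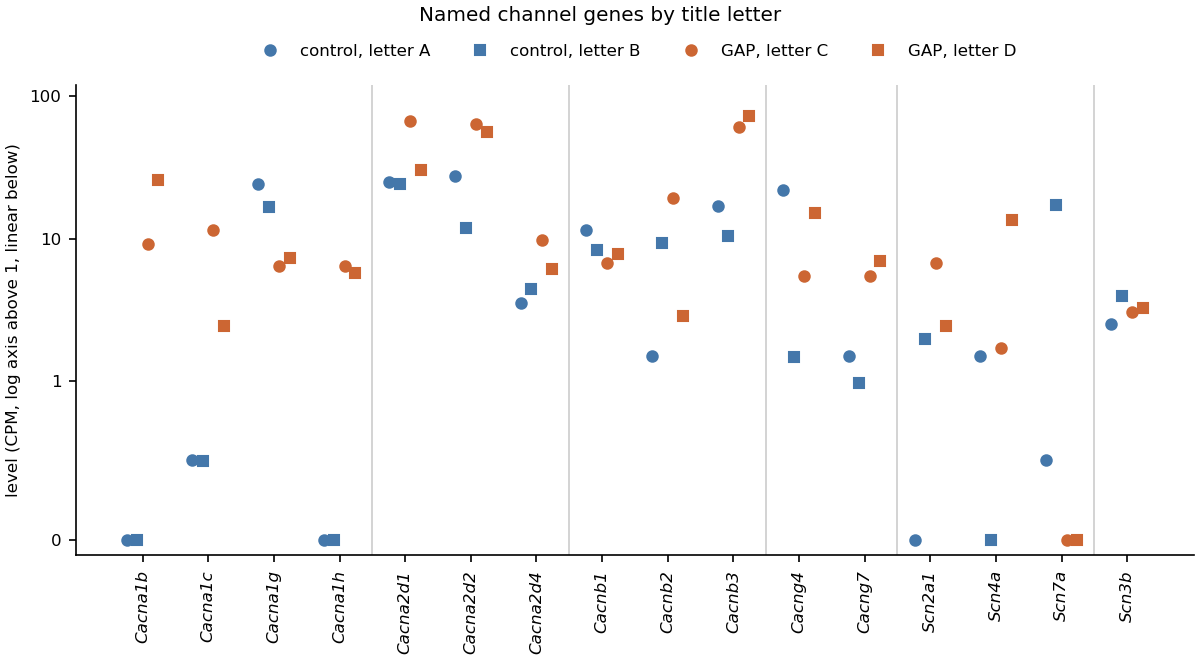
Level of each named channel gene in CPM (vertical axis, logarithmic above 1 and linear below) by title letter, with control letters A and B in blue and GAP letters C and D in orange. Both GAP points of Cacnb3 (61.1 and 73.5 CPM) lie above both control points (17.1 and 10.4), while those of Cacnb2 and Cacng4 are interleaved with the control points.

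Among the pore-forming alpha1 genes, Cacna1b encodes the pore of N-type channels, which trigger transmitter release at many neuronal synapses. It lies on mm10 chromosome 2 from 24603887 to 24763152 on the minus strand. Cacna1b had 0 UMIs in letters A and B and reached 9.21 CPM (C) and 25.9 CPM (D) in GAP letters. Both GAP letters were thus above the control letters. The interval for 0 UMIs in control cells reaches 0.922 CPM. Against a floor of 3 control counts, or 0.750 CPM, the GAP level of 16.8 CPM (13.5 to 20.6) was at least 22.4-fold higher. The bound was 11.3, 11.1, 34.5 and 12.3 with letter A, B, C or D left out. Its 90 UMIs came from 24 of the 180 GAP cells, and after thinning 6.67% of GAP cells (3.49 to 11.4) held one, and 0 control cells did.

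Cacna1c, the pore of an L-type channel known from heart and smooth muscle, showed a like pattern at a lower level. Each control letter held 1 UMI of it (0.504 and 0.496 CPM), and the GAP letters had 11.6 CPM (C) and 2.46 CPM (D). The groups did not overlap, and the ratio of 14.9 (3.87 to 127.4) rests on 2 control UMIs. It was 4.93 without letter C and 23.2 without letter D. Cacna1h, a T-type pore gene, had 0 UMIs in control cells and was at 6.48 and 5.75 CPM in letters C and D, at least 8.20-fold higher over all GAP cells (4.13 and 4.07 without letter A or B). Only 7 GAP cells held its 33 UMIs, and 5 of them held 93.9%.

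Cacna1g, a T-type gene whose channel opens near the resting potential, differed in the other direction. It was counted at 24.2 CPM (A) and 16.9 CPM (B) in control letters and 6.48 CPM (C) and 7.39 CPM (D) in GAP letters. Both GAP letters were below both control letters, and the gene was 2.97-fold lower in GAP cells (1.99 to 4.51). All 37 GAP UMIs lay in 7 cells of cluster 8 of the deposited annotation, named Reprogrammed Unknown 2. Without the cells of that cluster Cacna1g had 0 UMIs in GAP cells and 19.8 CPM in control cells.

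The remaining alpha1 genes with UMIs were low. Cacna1a, the P/Q-type pore gene of neuronal synapses, was at 5.498 CPM in control and 1.49 CPM in GAP cells and 3.69-fold lower (1.58 to 9.58), with 8 UMIs in 4 GAP cells. Cacna1e, the R-type pore gene, had 19 UMIs in 4 GAP cells and 0 in control cells. Summed over the alpha1 genes counted here, GAP cells had 42.3 CPM and control cells 26.5 CPM, a ratio of 1.60 (1.26 to 2.03).

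The identity of the alpha1 gene that gave the UMIs differed more than the sum did. Cacna1g gave 77.4% of the UMIs of the alpha1 genes counted here in control cells (68.2 to 84.9). It gave 16.3% of the 227 in GAP cells (11.7 to 21.8). Cacna1b gave 39.6% in GAP cells (33.2 to 46.3) and none of those in control cells. Longer transcripts give more UMIs with this whole-transcript priming, so each share is compared between cells and not between genes.

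**Figure D2:**
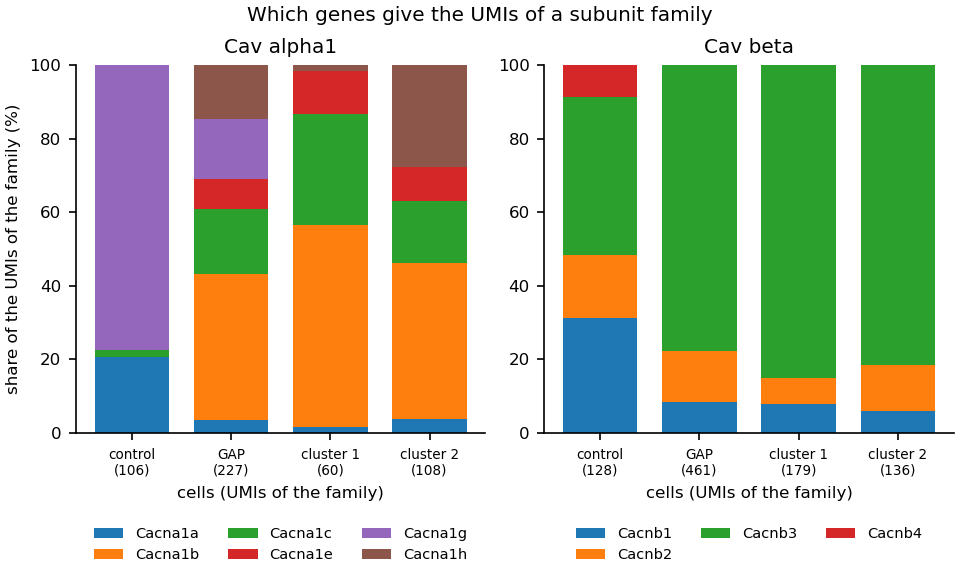
Share of the UMIs of the Cav alpha1 and Cav beta families (vertical axis, percent) given by each gene in control cells, GAP cells and the cells of clusters 1 and 2, with the number of UMIs under each bar. Cacna1g makes up 77.4% of the control alpha1 bar and 0 of the bars of clusters 1 and 2, and Cacnb3 makes up 42.97% of the control beta bar and 77.7% of the GAP bar. The alpha1 gene that the selection rule leaves out is in no bar.

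Of the alpha2delta genes, Cacna2d2 (mm10 chromosome 9, 107399612 to 107529343, plus strand) encodes a subunit that raises surface expression of several calcium channels. It was counted at 27.7 CPM (A) and 11.9 CPM (B) in control letters and 63.8 CPM (C) and 56.2 CPM (D) in GAP letters. The letters of the genotypes did not overlap, and the ratio was 3.06 (2.38 to 3.96), or 5.07 without letter A and 2.18 without letter B. After thinning, 26.7% of GAP cells (20.4 to 33.8) and 6.21% of control cells (3.14 to 10.8) held a UMI of it.

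Cacna2d1, the alpha2delta gene whose product binds gabapentin, was counted at 25.2 CPM (A) and 24.3 CPM (B) in control letters and 67.6 CPM (C) and 30.4 CPM (D) in GAP letters. Its ratio of 2.05 (1.62 to 2.61) lay just past the 2-fold threshold. It was 1.23 without letter C, and 1.74 without cluster 8, where the gene was highest. Cacna2d4, known from photoreceptors, was counted at 3.53 CPM (A) and 4.46 CPM (B) in control letters and 9.90 CPM (C) and 6.16 CPM (D) in GAP letters. All 4 values were ordered by genotype, with a ratio of 2.05 (1.13 to 3.89), but the log2 ratio with 1 CPM added stayed under 1. Cacna2d3 had 4 UMIs, all in letter C. The family as a whole was at 120.01 CPM (GAP) and 48.5 CPM (control), a ratio of 2.48 (2.10 to 2.92).

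The beta genes differed from each other. Cacnb3 (mm10 chromosome 15, 98630840 to 98644529, plus strand) encodes a cytoplasmic subunit that chaperones high-voltage-activated pores. It was counted at 17.1 CPM (A) and 10.4 CPM (B) in control letters and 61.1 CPM (C) and 73.5 CPM (D) in GAP letters, 4.85-fold higher in GAP cells (3.65 to 6.57). The letters did not overlap, and with each letter left out the ratio lay between 3.89 and 6.41. A UMI of Cacnb3 was found after thinning in 32.8% of GAP cells (25.98 to 40.2) and in 5.08% of control cells (2.35 to 9.43).

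Cacnb1, the beta subunit gene of skeletal muscle channels, was counted at 11.6 CPM (A) and 8.43 CPM (B) in control letters and 6.83 CPM (C) and 7.80 CPM (D) in GAP letters. The ratio was 0.727 (0.456 to 1.16), an interval that includes 1. Cacnb2, which serves channels of heart, retina and inner hair cells, was at 1.51 and 9.42 CPM in the control letters and 19.5 and 2.87 CPM in the GAP letters. These values overlap, and the ratio of 2.17 over all cells ran from 0.523 without letter C to 7.89 without letter B. Cacnb4, known from brain, had 11 UMIs in 6 control cells and 0 in GAP cells, at least 4.92-fold lower. The annotation places 15.99% of the exon bases of Cacnb4 and 7.32% of those of Cacnb2 in genes on the other strand, and the use of strand in counting is not given in the sources used here. Cacnb3 gave 77.7% of all beta UMIs in GAP cells (73.6 to 81.4) and 42.97% in control cells (34.3 to 52.01).

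The gamma genes with UMIs, Cacng2, Cacng4 and Cacng7, encode proteins that are better known for carrying AMPA-type glutamate receptors to the surface than as channel subunits. Cacng4 was counted at 22.2 CPM (A) and 1.49 CPM (B) in control letters and 5.46 CPM (C) and 15.2 CPM (D) in GAP letters. The letters overlap, and the ratio turned from 6.64 without letter A to 0.445 without letter B. Cacng7 was at 1.51 and 0.991 CPM in the control letters and 5.46 and 6.98 CPM in the GAP letters, a ratio of 4.92 (1.91 to 16.1) on 5 control UMIs. Cacng2 had 5 UMIs in 2 GAP cells and 0 in control cells.

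Sodium channel alpha genes were sparse in control cells and were spread over several genes in GAP cells. Scn4a, the skeletal muscle gene, was at 1.51 CPM in letter A (3 UMIs in 1 cell), 0 in letter B, 1.71 CPM in letter C and 13.5 CPM in letter D. The ratio of 9.44 (3.00 to 47.8) was at least 4.76 without letter A, 4.68 without letter B, 18.1 without letter C and 2.28 without letter D.

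Scn2a1, a brain channel of axon initial segments and unmyelinated axons, was counted at 0 CPM (A) and 1.98 CPM (B) in control letters and 6.83 CPM (C) and 2.46 CPM (D) in GAP letters. The groups did not overlap, and the ratio was 4.85 (1.68 to 19.1) on 4 control UMIs, or 2.44 without letter A, at least 3.20 without letter B and 2.46 without letter C. Scn11a, a sensory neuron channel, had 24 UMIs spread over 14 GAP cells and 0 in control cells, with 7.17 CPM (C) and 1.23 CPM (D), at least 5.97-fold higher. Scn8a, the channel of mature nodes of Ranvier, was at 3.54 CPM (GAP) and 1.4995 CPM (control), and its ratio of 2.36 (0.907 to 7.22) has an interval that includes 1.

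Scn7a, a sodium-sensing member of the family that does not act as a classical voltage-gated channel, had 36 UMIs in control cells and 0 in GAP cells. A single cell of letter B held 88.9% of them, so the lower level rests on that cell. Because of it the family sum of control cells was 2.02 CPM in letter A and 22.3 CPM in letter B, against 23.2 and 24.2 CPM in letters C and D. After thinning, a UMI of any Nav alpha gene was found in 13.9% of GAP cells (9.19 to 19.8) and in 1.69% of control cells (0.351 to 4.87).

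Sodium channel beta subunits modulate the gating of the pore. Scn3b, a beta subunit gene, was at 3.25 CPM in control and 3.17 CPM in GAP cells, a ratio of 0.975 (0.446 to 2.18). Scn4b had 8 UMIs in 2 GAP cells and 4 in 1 control cell.

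Levels of different genes can be set side by side only per length. Per kilobase of exon in GENCODE M21, Cacnb3 was highest in GAP cells at 16.6 CPM per kb (14.96 to 18.5), against Cacna2d2 at 7.60 (6.79 to 8.47) and Cacna2d1 at 4.08 (3.61 to 4.60). The counting intervals of these 3 genes do not overlap. In control cells Cacnb3 at 3.43 CPM per kb (2.58 to 4.46), Cacng4 at 3.29 (2.41 to 4.37) and Cacna2d2 at 2.48 (1.97 to 3.10) were the highest, and their intervals overlap.

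Sequences before the transcription starts are shown for 3 genes called higher, 1 of each of the alpha1, beta and Nav alpha families, whose windows hold a short motif. They were taken from RefSeq starts on build GRCm38.p6, which has the coordinates of mm10, and are the 250 bases before the start, written 5′ to 3′ on the strand of the gene. No exon of GENCODE M21 lies in these windows. Capitals mark the E-boxes, a motif class bound by basic helix-loop-helix factors such as Atoh1, with the letters CAGCTG as one form and with CAGATG or its reverse complement CATCTG as another. They also mark AATCAC or its reverse complement GTGATT, a core bound by Gfi1. For Cacnb3 the start belongs to a transcript that was not found in GENCODE M21. Its other start, which was found there, has the window chr15:98634517-98634766, not printed here, which holds none of these motifs.
Cacna1b, chr2:24763153-24763402, minus strand: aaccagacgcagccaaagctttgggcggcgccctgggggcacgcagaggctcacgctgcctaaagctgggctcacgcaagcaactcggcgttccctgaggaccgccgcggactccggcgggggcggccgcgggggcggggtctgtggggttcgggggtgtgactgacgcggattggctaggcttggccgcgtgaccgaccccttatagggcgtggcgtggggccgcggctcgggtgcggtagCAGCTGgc
Cacnb3, chr15:98632078-98632327, plus strand: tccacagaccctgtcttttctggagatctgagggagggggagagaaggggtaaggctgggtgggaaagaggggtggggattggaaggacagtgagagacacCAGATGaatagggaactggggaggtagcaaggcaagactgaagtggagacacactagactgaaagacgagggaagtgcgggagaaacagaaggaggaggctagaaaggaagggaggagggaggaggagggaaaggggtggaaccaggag
Scn11a, chr9:119825457-119825706, minus strand: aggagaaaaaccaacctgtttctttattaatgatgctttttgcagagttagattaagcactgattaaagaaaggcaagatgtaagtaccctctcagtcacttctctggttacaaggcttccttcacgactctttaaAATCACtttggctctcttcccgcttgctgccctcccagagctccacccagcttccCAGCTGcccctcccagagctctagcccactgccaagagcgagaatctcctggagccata

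The CAGCTG of Cacna1b begins 8 bases before its start and that of Scn11a 59 bases before its own, with an AATCAC farther upstream. The printed window of Cacnb3 holds a CAGATG, and the window of its other start does not. Windows were found for 28 of the 39 genes, 37 windows in all, since some genes have more than 1 start. CAGCTG, which reads the same on both strands, was in 10 of the 37 windows, and in 4271 of all 32851 windows of the same length. CAGATG or CATCTG was in 5 of the 37 (14.4% of all), and AATCAC or GTGATT in 4 (9.14% of all). TAATTAAT or its reverse complement ATTAATTA, a core bound by Pou4f factors, was in 0 of the 37 (0.788% of all), as was TTCAGCACC or its reverse complement GGTGCTGAA, a part of the element bound by REST (0.301% of all). Of the 9 genes called higher at any level that have a window, 2 held CAGCTG, 2 held CAGATG or CATCTG and 1 held AATCAC or GTGATT. A match is a run of letters and not a shown site of binding. The median GC content was 56.8% in these 37 windows and 52.4% in all.

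Across the 9 clusters of the deposited annotation, which were made from the same cells, the main genes are given by the clusters where their levels were highest. Clusters 1 (Reprogammed Sup Cells 1, 54 cells), 2 (Reprogrammed Hair Cells, 51 cells) and 7 (Reprogrammed Supp Cells 2, 20 cells) hold GAP cells only. Cluster 4 (WT Supp Cells) and clusters 0, 3 and 6 (named WT Cells with a number from 1 to 3) are made mainly of control cells, and clusters 5 and 8 (Reprogrammed Unknown 1 and 2) of both. Differences between clusters are described and not tested.

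**Figure D3:**
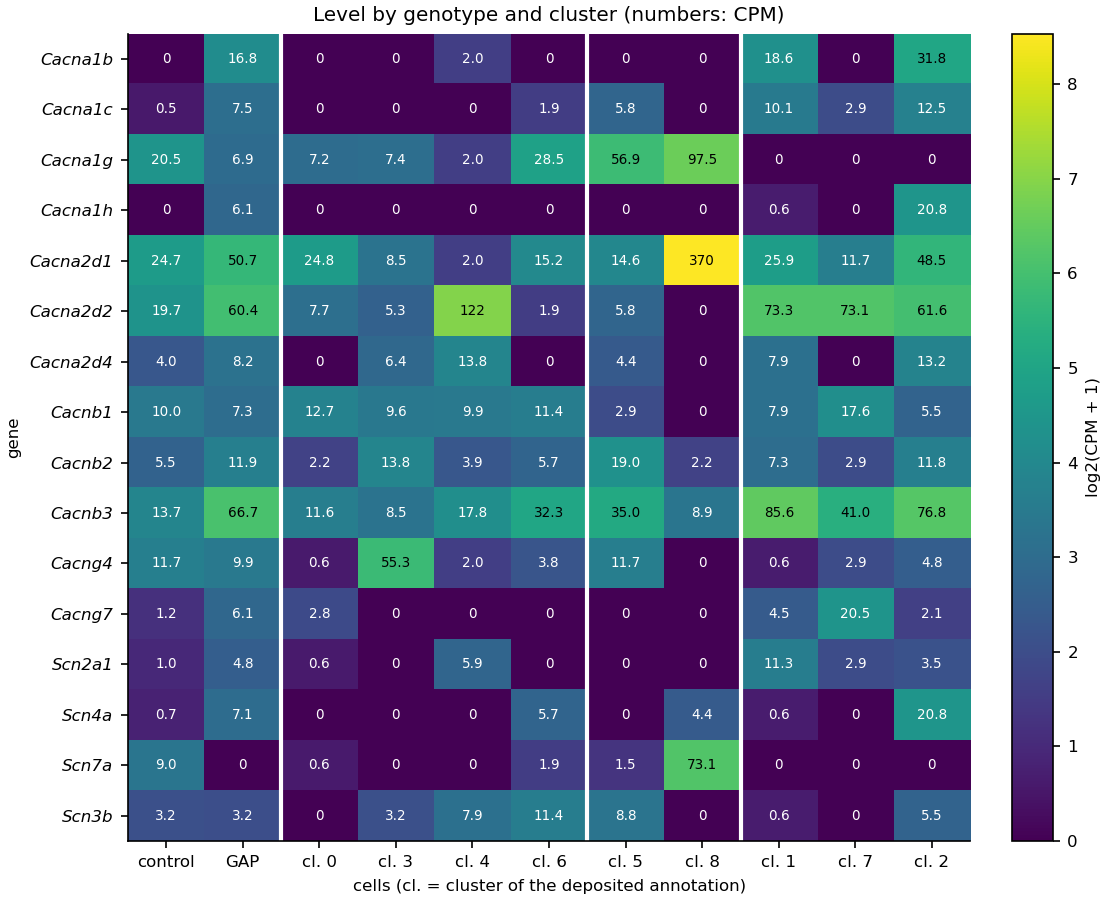
Level of the named channel genes (rows) in CPM, printed in each cell and coloured as log2(CPM + 1), in control and GAP cells and in each cluster (columns). The last 3 columns are the clusters of GAP cells only, where Cacnb3 and Cacna2d2 are high and Cacna1g is 0, and Scn4a and Cacna1h stand out in cluster 2.

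Cacnb3 was highest in cluster 1 at 85.6 CPM (72.6 to 100.4) and in cluster 2 at 76.8 CPM (63.2 to 92.5), which do not differ beyond counting error. Cluster 7 was at 40.95 CPM (22.4 to 68.7), and the 4 clusters made mainly of control cells ran from 8.51 CPM in cluster 3 to 32.3 CPM in cluster 6. After thinning, 44.4% of cells of cluster 1 (30.9 to 58.6) and 31.4% of cells of cluster 2 (19.1 to 45.9) held a UMI. In cluster 5, which holds 13 cells of each genotype, Cacnb3 was at 56.9 CPM in GAP cells (34.8 to 87.9) and 11.97 CPM in control cells (3.26 to 30.6).

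Cacna2d2 was high in control cells of a single cluster as well. In cluster 4, named WT Supp Cells, it was at 122.3 CPM (93.8 to 156.8), and 60 of its 62 UMIs there came from 9 control cells. It was at 73.3 CPM in cluster 1 (61.2 to 86.98), 73.1 CPM in cluster 7 (47.3 to 107.95) and 61.6 CPM in cluster 2 (49.5 to 75.8), and at most 7.71 CPM in clusters 0, 3, 5, 6 and 8. These were 60 of its 79 UMIs in control cells. Thinned shares of cells were 27.3% in cluster 4 (13.3 to 45.5), 35.2% in cluster 1 (22.7 to 49.4) and 27.5% in cluster 2 (15.9 to 41.7).

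Cacna1b was at 31.8 CPM in cluster 2 (23.3 to 42.5) and 18.6 CPM in cluster 1 (12.8 to 26.1), and 1 cell of cluster 1 held 54.5% of the UMIs there. Outside these clusters a single UMI was seen, in a GAP cell of cluster 4, among cells that have a cluster.

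Cluster 8 stood apart in 3 of the genes. Cacna2d1 was at 370 CPM there (316 to 431), in 12 of its 17 cells after thinning, and at 48.5 CPM (37.8 to 61.2) in the next cluster, cluster 2. This held in both genotypes, with 528 CPM (441 to 627) in its 10 GAP cells and 184 CPM (130 to 252) in its 7 control cells. Cacna1g was at 97.5 CPM (70.8 to 130.9), with 151.45 CPM (106.6 to 209) in GAP and 33.8 CPM (13.6 to 69.7) in control cells. Scn7a was at 73.1 CPM, with 1 cell holding 96.97% of the UMIs. The list of 7 endothelial markers summed to 399 CPM in cluster 8, of which Kdr gave 397 and Pecam1 2.22, with the other 5 at 0, and to at most 59.5 CPM in any other cluster; supporting cell markers summed to 1777 CPM, the lowest of the clusters. The part of these in the channel values was not tested.

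Outside cluster 8, all UMIs of Cacna1g lay in control cells. In cluster 5 it was at 116.7 CPM (82.98 to 160) in the 13 control cells, 6 of which held its 39 UMIs, and had 0 UMIs in the 13 GAP cells. As given for Cacnb3, the control and GAP cells of cluster 5 also differ in supporting cell and leukocyte markers. Cacna1g was at 28.5 CPM (15.97 to 47.1) in cluster 6, and clusters 1, 2 and 7 had 0 UMIs. The 15 GAP cells in clusters made mainly of control cells had 0 UMIs of Cacna1g, with an interval up to 10.7 CPM. The control cells of the same clusters were at 10.4 CPM (7.32 to 14.5), so these few GAP cells cannot show a difference. Among cells that have a cluster, Cacng4 was concentrated in cluster 3, at 55.3 CPM (41.3 to 72.6). It was at 54.4 CPM in control and 61.3 CPM in GAP cells of that cluster. Every other cluster was at 11.7 CPM or less. Counted over all cells, 1 cell held 38.3% of its control UMIs and 1 cell 45.3% of its GAP UMIs.

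**Figure D4:**
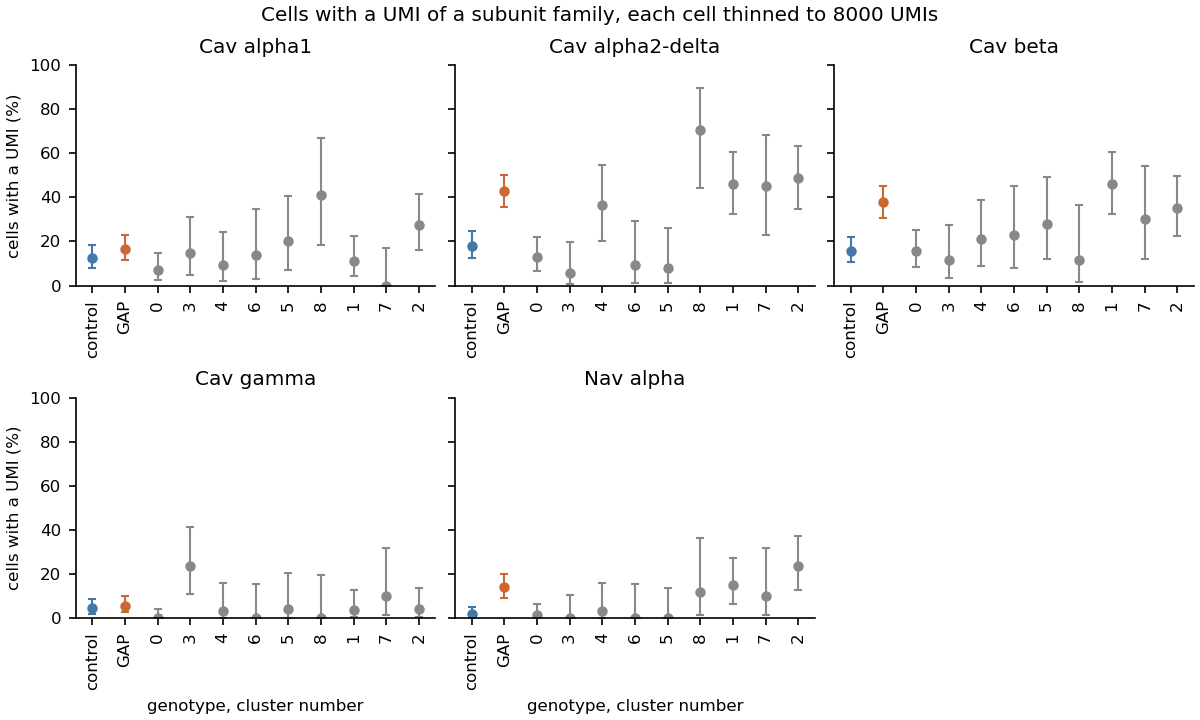
Share of cells with at least 1 UMI of a subunit family (vertical axis, percent) after thinning each cell to 8000 UMIs, in control and GAP cells and in each cluster by number, with exact 95% binomial intervals. The alpha2delta and beta shares of GAP cells (42.8% and 37.8%) lie above those of control cells (18.1% and 15.8%), and the alpha1 shares (16.7% and 12.4%) have overlapping intervals. The alpha1 shares do not count the gene that the selection rule leaves out.

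Cells of cluster 2, the authors' reprogrammed hair cells, were set against all control cells. The calcium channel pore genes Cacna1b, Cacna1c and Cacna1h and the sodium channel pore gene Scn4a were counted there and had 0 to 3 UMIs each in control cells. Of the 39 genes, 14 passed the filter of 5 CPM, 9 of them at least 2-fold higher (13.7% of 11077 genes) and 1 lower (10.9%). The higher genes include Cacna1b, Cacna1c, Cacna1h, Cacna2d2, Cacna2d4, Cacnb3 and Scn4a, and the lower gene was Cacna1g. The median log2 ratio was 1.55, against 0.103 for all genes. The counts and the median are a description. Cacna1b, Cacna1c, Cacna1h and Scn4a pass the filter only through their level in cluster 2.

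Cacna1b was at 36.7 and 28.7 CPM in the cells of letters C and D of cluster 2, at least 42.5-fold above control. Cacna1h was at 29.7 and 14.9 CPM there, at least 27.7-fold above control, with its 30 UMIs in 4 cells. Scn4a was at 5.24 and 30.95 CPM, 27.7-fold higher (8.61 to 141.8), in 10 of the 51 cells. All alpha1 genes together were at 74.8 CPM in cluster 2 (61.3 to 90.3) and 26.5 CPM in control cells, and all Nav alpha genes at 50.5 CPM (39.6 to 63.5) and 12.2 CPM.

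Markers of other electrically active cells were counted beside these. Of 10 neuron markers, 4 were at 0 in cluster 2. Nefh, Snap25 and Nefm were at 24.9, 24.2 and 12.5 CPM there and at 0 in control cells. The whole list summed to 197 CPM in cluster 2 and 130 CPM in control cells, most of it Mapt in both. In cluster 0, made mainly of control cells, the list summed to 199 CPM. Of 8 skeletal or cardiac muscle markers, 7 were at 0 in cluster 2 and Actn3 was at 12.5 CPM, against 0.9997 CPM in control cells. Smooth muscle and pericyte markers summed to 78.2 CPM in cluster 2, 244 CPM in cluster 1 and 3.999 CPM in control cells, mainly Rgs5, with Myh11 at 0. Their part in the channel values was not tested.

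Cluster 1, the reprogrammed supporting cells, was compared in the same way. The auxiliary genes Cacna2d2 and Cacnb3 were higher there, and of the pore genes Cacna1b and Scn2a1. Of the 39 genes, 12 passed the filter, 5 at least 2-fold higher than control cells (11.6% of 10825 genes), including Cacna1b, Cacna2d2, Cacnb3 and Scn2a1, and 2 lower (10.9%), Cacna1g and Cacng4. Scn2a1 was at 17.9 and 3.63 CPM, 11.3-fold higher (3.78 to 45.4), in 8 of the 54 cells. Cacna1b differed widely between the letters, at 4.22 and 35.1 CPM. Cacna1b and Scn2a1 pass the filter only through their level in cluster 1, so these counts are a description as well.

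Clusters 1 and 2 were then compared, with the direction also required within each of letters C and D. The folds are over the cells of both letters. Cluster 1 holds 28 cells of letter C and 26 of letter D, and cluster 2 holds 20 and 31. The letter is therefore not removed from the folds. Of the 14 genes past the filter, 3 were at least 2-fold higher in cluster 2 over all cells and higher within both letters (9.79% of 11066 genes), and 2 were lower (8.29%). Cacna1h and Scn4a were among the 3, each with 1 UMI in cluster 1, so that they pass the filter only through cluster 2. Scn4a was at 5.24 CPM in cluster 2 and 1.06 CPM in cluster 1 in letter C, and at 30.95 CPM and 0 in letter D. Cacna1h was at 29.7 CPM and 0 in letter C and at 14.9 and 1.21 CPM in letter D.

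Scn2a1 was among the lower genes. It was 3.26-fold lower in cluster 2 than in cluster 1 (1.19 to 11.1), but in letter D the levels were 3.44 and 3.63 CPM, so the difference rests on letter C. Cacnb3 and Cacna2d2 had ratios of 0.897 (0.696 to 1.15) and 0.841 (0.635 to 1.11), whose intervals include 1. Scn2a1 gave 71.4% of the 28 Nav alpha UMIs of cluster 1 (51.3 to 86.8) and 6.85% of the 73 of cluster 2 (2.26 to 15.3), while Scn4a gave 3.57% (0.0904 to 18.3) and 41.1% (29.7 to 53.2).

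Few cells held more than a handful of these genes. After thinning, a control cell held a UMI of a median of 0 of the 39 genes and at most 3, and a GAP cell of 1 and at most 5. No gene of the group was seen in 54.2% of control and 21.7% of GAP cells. The median was 2 in cluster 2, 1 in clusters 1, 4, 7 and 8, 0.5 in cluster 3 and 0 in clusters 0, 5 and 6. The 15 GAP cells that lie in the clusters made mainly of control cells had Cacnb3 at 11.6 CPM (3.17 to 29.8) and Cacna2d2 at 8.74 CPM (1.80 to 25.5), against 77.8 and 68.5 CPM in the GAP cells of clusters 1, 2 and 7. The control cells of the same clusters were at 14.8 CPM (11.02 to 19.5) for Cacnb3 and 22.9 CPM (18.2 to 28.6) for Cacna2d2.

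Other genes of excitability were taken from 7 companion lists and called by the same rule in GAP against control cells. The counts of every list stand beside all 11050 genes past the filter, of which 12.1% were called higher and 6.09% lower. The median log2 ratio of all these genes was 0.096. Here too a gene seen in a single genotype can pass through the genotype where it is high, so the counts are a description. Of 30 partners and regulators of calcium and sodium channels, 15 passed the filter, 5 of them higher and 1 lower, and their median log2 ratio was 0.423. Of those with most UMIs, the calmodulin genes Calm2 and Calm3 and the genes Ank3, Camk2d and Nedd4l were within 2-fold, from 0.855 for Nedd4l, a ubiquitin ligase of sodium channels, to 1.74 for Ank3, the ankyrin that anchors them.

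Potassium channels known from hair cells showed higher levels in GAP cells for 4 of the 8 that passed, out of 12 listed, and lower for 0, with a median log2 ratio of 0.782. Kcnh6 was at 234 CPM against a single control UMI, and Kcna10 at 59.1 CPM, with 0 control UMIs and a bound of at least 78.8-fold. Kcnh2 and Kcnh7 had ratios of 1.36 and 0.682 with intervals that include 1.

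Chrna9 and Chrna10, the nicotinic subunits by which efferent fibres inhibit hair cells, were at 16.96 and 13.2 CPM in GAP cells and 0 in control cells, at least 22.6-fold and 17.6-fold higher. P2rx2, an ATP receptor channel, was 2.11-fold lower (1.98 to 2.25), and P2rx4 had a ratio of 1.15 (0.948 to 1.41). P2rx7 had 16 UMIs in GAP cells and 0 in control cells, and P2rx3 was at 0.186 CPM (GAP) and 2.75 CPM (control). Of 7 listed, 4 passed, 2 higher and 1 lower, and the median log2 ratio was 2.02, or 2.17 with the genes at 0 put at their bound.

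Leak and pacemaker channels did not share a direction. Nalcn, the sodium leak channel, was 2.08-fold lower in GAP cells (1.87 to 2.31), with letters at 204 (A), 244 (B), 95.2 (C) and 122.7 CPM (D) and with a log2 ratio of -1.05 as the only gene of its list that passed. Its partners Unc80 and Unc79, with 2 control UMIs each, were at 7.27 and 2.24 CPM in GAP cells against 0.500 CPM each in controls, and Fam155a is listed at 0. Of the 4 HCN genes, 0 passed, with Hcn3 and Hcn4 at 1.49 and 0.373 CPM in GAP cells and Hcn2 listed at 0.

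Among intracellular calcium release channels, Itpr2 was 2.41-fold higher (2.16 to 2.71) and Itpr3 2.13-fold higher (1.70 to 2.70), while Itpr1, the most counted, was 1.61-fold lower (1.53 to 1.70) and within the threshold. Ryr1, Ryr2 and Ryr3 had 12, 6 and 1 UMIs, all in GAP cells. The median log2 ratio of the 3 that passed was 1.06. Of epithelial sodium and acid-sensing channels, Scnn1g was 3.21-fold higher (2.02 to 5.30) and Asic1 11.9-fold higher (4.90 to 37.7, on 5 control UMIs), and Scnn1a had a ratio of 1.83 (1.52 to 2.23). Asic2, Asic3 and Scnn1b were at most 2.42 CPM in either genotype, and the median log2 ratio of the 3 that passed was 1.53.

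**Figure D5:**
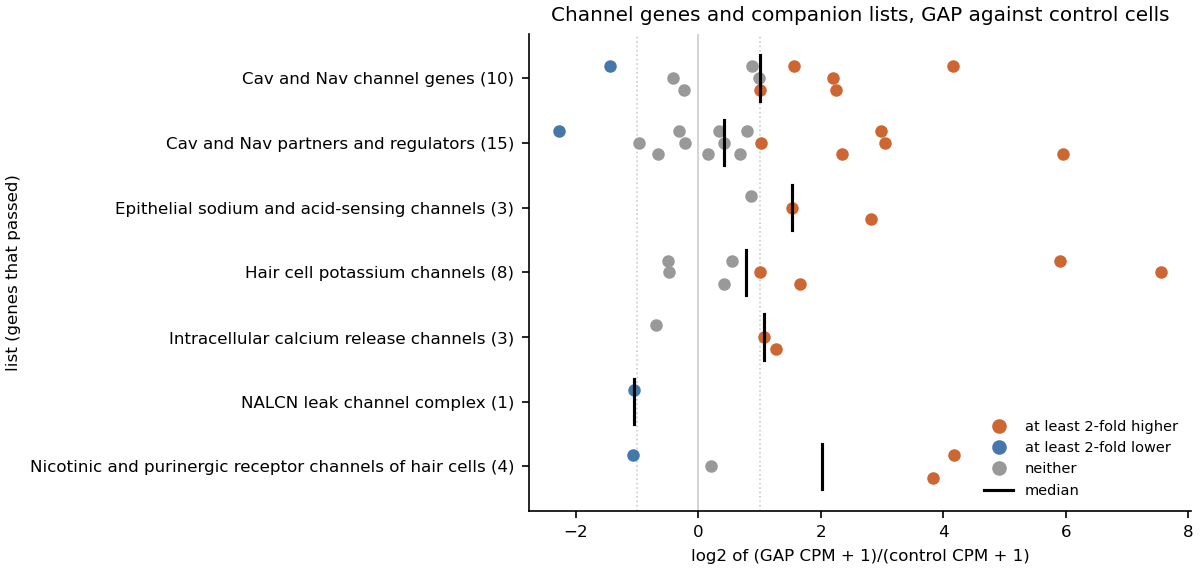
Log2 ratio of GAP to control levels, each with 1 CPM added (horizontal axis), for the channel genes and for the genes of each companion list that passed the filter of 5 CPM (rows, with their number), with a black bar at the median. The potassium channels Kcnh6 and Kcna10 lie farthest to the right, and Nalcn is the only gene in its row.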

How the data were processed

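Exon UMI counts per gene and cell were used as deposited. Per the submitters' processing notes, STAR, HTSeq and the mm10 build were used; versions, annotation release and strand setting were not given in the sources used here. Per the labels' protocols, libraries were made with SMART-MATQ, which primes along whole transcripts. Clusters are the authors' deposited annotation (341 of 360 cells).

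Counts were summed per set of cells and divided by the set's total UMIs (Python 3.11.15, numpy 2.4.6, scipy 1.17.1, pandas 2.3.3, matplotlib 3.10.9). Intervals are exact 95% Poisson intervals for levels, Clopper-Pearson intervals for shares and conditional binomial intervals for ratios. They cover counting error only. Against 0 UMIs a bound was computed with a floor of 3 counts over the group. Each such bound divides a level by that floor and is not the end of a 95% interval. With 1 sample per genotype no test was run. The intervals were tried only on counts simulated as Poisson, the distribution that they assume. That trial cannot show how they behave where the UMIs of a gene clump in a few cells.

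The genes and lists were chosen with earlier results of these data known. Genes were named where a level reached the filter of 5 CPM on the mean of genotypes, or 10 CPM in a cluster of at least 10 cells; lists name their 6 genes with most UMIs, and others were named after their values were seen. Alternatives covered scaling (TMM in edgeR 4.0.16 under R 4.3.3, and median of ratios), thinning, filters, the pseudocount and leaving out letters, clusters or cells. Gene coordinates and lengths are from GENCODE M21. The 1 alpha1 gene that the selection rule leaves out, which is in no family sum, and some genes that are part of the counts, sums and medians are not reported here.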

Additional observations from a re-analysis of the deposited data

How the results depend on the processing

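Of the channel genes, 5 were at least 2-fold higher in GAP cells. This count was 3 with a filter of 25 CPM and 13 with no filter. It was 4 with TMM or median of ratios scaling, with a pseudocount of 10 CPM, without cluster 8 and without each gene's top cells. With the mean of per-cell CPM or with thinning it was 6. With each title letter left out it was 5 to 7, where fewer letters must be clear of each other for a call. The count of lower genes, 1, became 0 with the mean of per-cell CPM, with a pseudocount of 10 CPM and with the filter of 25 CPM, 4 with no filter, and 1 to 2 with each letter left out (2 without letter A or letter B). The median log2 ratio of 0.999 was 0.99 to 1.53 with each letter left out (1.53 without letter D), 1.74 without the cell holding most UMIs of each gene, 1.57 with the filter of 25 CPM and 0.65 with a pseudocount of 10 CPM. Over the 4 pairings of a GAP with a control letter it ran from 0.64 to 1.41. Cacnb3 and Cacna2d2 were called higher in every setting run. Cacna2d1 was not called under either other scaling or the pseudocount of 10 CPM. It was also not called without letter B, letter C, cluster 8, the top cells or cells under 10000 UMIs. Cacna1b did not pass the filter of 5 CPM without letter D, where its log2 ratio was 3.35. It does not pass the filter of 25 CPM either. Over the 18 genes followed in every setting, 229 values moved by less than their error and 23 moved by more. No gene called higher or lower in the main comparison changed direction. The ratios of Cacna2d4, Cacnb2, Cacng4 and Scn3b, which were not called there, changed sign in some settings. On the log2 scale Cacnb2 went from 0.99 to -0.75 without letter C, and Cacng4 from -0.23 to 2.13 without letter A. Cacng4 was called higher without letter A and lower without letter B. Cacna2d4 and Cacnb2 were called higher without letter B or letter D. The median of all genes lay between 0.0187 and 0.137 in the settings run. No paired analysis was possible because the labels give no replicate numbers that link control and GAP cells. A level of a few UMIs rests on a few cells, and the interval for 0 UMIs in control cells reaches 0.922 CPM.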
